A study of Saccharomyces cerevisiae with 10 samples.

Results

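The 9 histone genes of budding yeast (Saccharomyces cerevisiae) described here are the gene pairs for the core histones H2A (HTA1, HTA2), H2B (HTB1, HTB2), H3 (HHT1, HHT2) and H4 (HHF1, HHF2), and the single gene for the linker histone H1 (HHO1). They were chosen by gene symbol, without regard to their values, and they are 9 of 6377 features measured. Each had 1 reporter oligonucleotide, spotted 2 times on every array. The data came from 10 two-colour arrays, on which RNA of a strain and RNA of a common reference pool were labelled with different dyes. The series concerns interactions within NuA4, an acetyltransferase complex that acts on nucleosomal H4 and H2A, and its smaller module known as piccolo NuA4. Strains were grown to mid-log phase, and each was put on 2 arrays of opposite dye orientation: in replicate a the strain carried Cy3 and in replicate b it carried Cy5.

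The mutant strains were Epl1 1:380 and Epl1 1:485, which are FLAG-tagged Epl1 proteins whose labels were read as the last residue kept of 832, and an eaf1 deletion. They were set against tagged Epl1, which carries the FLAG tag with no truncation in its label, and Eaf1 1:982, which carries an HA tag. Although Eaf1 1:982 is labelled as truncated at its C-terminus, 982 is also the number of codons in the EAF1 gene. An HA tag is named for the deletion in its sample titles but not in its source label. The make-up of the pool is not given in the sources used here, and the wild type profiles to which the submitters compared their mutants were not analysed here. Nothing in the labels says that the 2 arrays of a strain came from separate cultures, so p-values measure the spread between arrays, which may be technical.

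Core histones are made mainly in S phase, when new DNA is packed into nucleosomes, and yeast keeps 2 copies of each core gene in divergent pairs, so that an H2A gene shares a promoter region with an H2B gene and an H3 gene with an H4 gene. In the gene order of the R64 assembly these pairs are HTA1 with HTB1, HTA2 with HTB2, HHT1 with HHF1 and HHT2 with HHF2. Copies of a pair code for nearly or fully the same protein, so a reporter of one copy may also bind RNA of the other. Cross-hybridisation was not tested, and values of paralogs are uncertain to that extent.

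The estimates of the 9 histone genes in the 3 mutants, each against its tagged strain, lay between -0.04 and 0.37 on the log2 scale. By limma with Benjamini-Hochberg adjustment over all features, 0 of 9 were called in any of the 12 comparisons made, in which 0% to 4.39% of all features were called. A call needs a fold over 1.7 besides an adjusted p under 0.05. At such shares, 0 of 9 does not set the histone genes apart from other features. HHT2, an H3 gene, was the member with the most repeated difference: its estimate was 0.37 on the log2 scale in Epl1 1:380 and 0.32 in Epl1 1:485, each against tagged Epl1, and 0.26 in the eaf1 deletion against Eaf1 1:982. These 3 estimates did not pass the test on the background-corrected, loess-normalised intensities, and they did pass it when the dye orientation was a block and in the authors' deposited log2 ratios. Of all features, 37.2% to 46.5% passed with the block and 33.6% to 40.8% in the deposited ratios. With print-tip loess and no block, HHT2 passed in both truncations (limma, adjusted p 0.0302 and 0.0463) but not in the deletion (0.202). There 20.4%, 17.7% and 13.6% of all features passed. The estimates of the 8 core genes were above 0 in both Epl1 truncations, with medians of 0.20 in Epl1 1:380 and 0.22 in Epl1 1:485, against 0.0029 and -0.0011 over all features. In the deletion 7 of 8 were above 0, with a median of 0.04. Between the tagged strains, Eaf1 1:982 against tagged Epl1, 8 of 8 were above 0 too, with a median of 0.07. Of all features, 49.7% to 50.4% were above 0 in these comparisons. For Epl1 1:380, Epl1 1:485 and the deletion, the core medians were 0.13, 0.14 and 0.01 with print-tip loess. In the deposited ratios they were 0.16, 0.22 and 0.06. With median centring they were 0.05, 0.06 and -0.03, where all features had 0.03 in each comparison. In RNA of a whole culture, more cells in S phase and more histone RNA per cell cannot be told apart.

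Signals were strong. The 9 reporters were above background in both channels at all 20 of their spot readings each, and none was saturated. The H2A and H2B reporters and those of HHF2 and HHT2 lay between the 95.6th and 97.1th percentile of brightness, HHF1 at the 88.9th, and HHT1 and HHO1 at the 69th and 69.5th. Some Cy5 readings exceeded the limit above which the authors left spots out of their normalisation curve, namely 8 of 20 for HTA1, 3 for HTA2, and 2 each for HTB1 and HTB2. The largest gap between the 2 spots of a reporter on one array was 0.22 on the log2 scale, and the median gap per gene was at most 0.06. As a check of the labels, EAF1 fell by 2.69 ± 0.11 on the log2 scale (SE) in the deletion against Eaf1 1:982 (limma, adjusted p 3.15e-05). Against the pool, EAF1 was -2.06 ± 0.07 in the deletion and 0.63 ± 0.07 in Eaf1 1:982 (SE; limma, adjusted p 2.92e-06 and 0.00734). Part of the difference thus lay in a higher EAF1 value in Eaf1 1:982. Across all features the 2 arrays of a strain correlated at 0.81 or more in Epl1 1:380 and the deletion, at 0.728 in Epl1 1:485, at 0.142 in tagged Epl1 and at 0.284 in Eaf1 1:982.

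HHT2 is 1 of 2 genes for H3, whose tail is acetylated chiefly by other complexes than NuA4. Its log2 ratio of strain over pool on replicates a and b was 0.47 and 0.14 in Epl1 1:380, 0.46 and 0.06 in Epl1 1:485 and 0.45 and 0.11 in the deletion, against 0.04 and -0.17 in tagged Epl1 and 0.10 and -0.06 in Eaf1 1:982. Of the 6 mutant arrays, 5 were above each of the 4 tagged arrays, and Epl1 1:485 replicate b was below Eaf1 1:982 replicate a. The ratio was higher on replicate a than on replicate b in all 5 strains, by 0.16 to 0.40. In the authors' deposited ratios the values were 0.52 and 0.40 in Epl1 1:380, 0.48 and 0.37 in Epl1 1:485 and 0.33 and 0.18 in the deletion, against 0.03 and -0.07 in tagged Epl1 and 0.01 and -0.01 in Eaf1 1:982. There the 6 mutant arrays lay above the 4 tagged arrays without overlap, as did 19.7% of all features.

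The strain means of HHT2 were 0.30 ± 0.23 in Epl1 1:380, 0.28 ± 0.24 in the deletion, 0.26 ± 0.28 in Epl1 1:485, 0.02 ± 0.12 in Eaf1 1:982 and -0.06 ± 0.15 in tagged Epl1 (SD, n = 2 each). Each SD includes the gap between replicates a and b, where a was higher in every strain. These SDs therefore cannot decide whether neighbours in this order differed. Epl1 1:485 and Eaf1 1:982 had 0.46 and 0.10 on replicate a, and 0.06 and -0.06 on replicate b. These neighbours were not tested against each other. Eaf1 1:982 against tagged Epl1 was 0.08 ± 0.18 (SE), and did not pass the limma test with or without the block. In Epl1 1:380 the change against tagged Epl1 was 0.37 ± 0.18 (SE), a 1.29-fold difference, with a 95% interval of -0.05 to 0.78 and an adjusted p of 0.207 (limma). The change was 0.43 on replicate a and 0.31 on replicate b. With the replicate letter as a block the error was 0.07, the interval 0.21 to 0.52 and the adjusted p 0.00166, and in the deposited ratios the change was 0.48 ± 0.07 with an adjusted p of 0.00092 (limma). Under those settings HHT2 rose.

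In Epl1 1:485 the HHT2 change against tagged Epl1 was 0.32 ± 0.18 (SE; limma, adjusted p 0.277), or 0.42 on replicate a and 0.23 on replicate b. The adjusted p was 0.00378 with the block, and the deposited ratios gave 0.44 ± 0.07 with an adjusted p of 0.00165 (limma). In the deletion the change against Eaf1 1:982 was 0.26 ± 0.18 (SE; limma, adjusted p 0.425), or 0.35 on replicate a and 0.17 on replicate b. With the block the adjusted p was 0.0136, and in the deposited ratios it was 0.0243 for a change of 0.26 ± 0.07 (limma). The difference between the mean of the truncation effects and the deletion effect was 0.08 ± 0.24 for HHT2 (SE; limma, adjusted p 1), so a difference in size between the mutants was not detectable.

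HHT1, the other H3 gene, had smaller differences. Its ratio on replicates a and b was 0.10 and 0.09 in Epl1 1:380, 0.19 and 0.02 in Epl1 1:485 and 0.14 and 0.05 in the deletion, against -0.04 and -0.04 in tagged Epl1 and 0.11 and 0.03 in Eaf1 1:982. The truncation arrays lay above both tagged Epl1 arrays, and the deletion arrays overlapped those of Eaf1 1:982. The change was 0.14 ± 0.08 in Epl1 1:380, 0.15 ± 0.08 in Epl1 1:485 and 0.02 ± 0.08 in the deletion (SE; limma, adjusted p 0.286, 0.277 and 0.936). Whether the change differed between HHT1 and HHT2 was not tested.

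**Figure D1:**
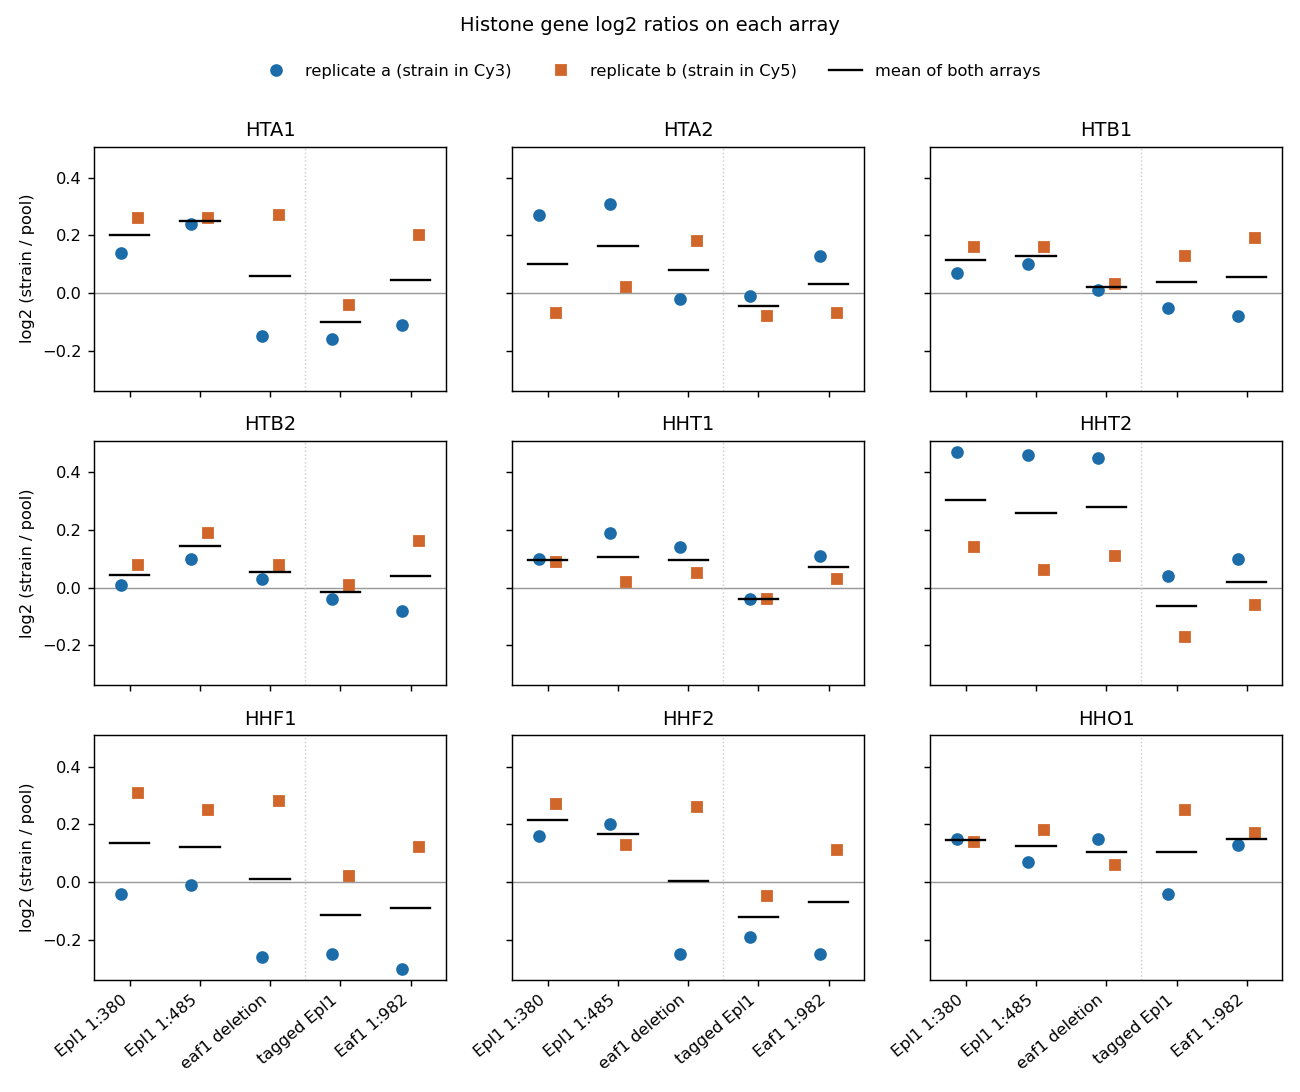
Log2 ratio of strain over pool for each histone gene on each of the 10 arrays, from background-corrected, loess-normalised intensities. Circles are replicate a and squares replicate b, bars are means of both arrays, and a dotted line divides the 3 mutants from the 2 tagged strains. HHT2 sits between 0.06 and 0.47 in the mutants, against -0.17 to 0.10 in the tagged strains, with replicate a above replicate b in each strain.

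The H4 genes make the histone whose tail is the main target of NuA4. HHF2, the divergent partner of HHT2, had ratios on replicates a and b of 0.16 and 0.27 in Epl1 1:380, 0.20 and 0.13 in Epl1 1:485 and -0.25 and 0.26 in the deletion, against -0.19 and -0.05 in tagged Epl1 and -0.25 and 0.11 in Eaf1 1:982. Both truncations were above tagged Epl1 on both of their arrays, and the deletion spanned nearly the same range as Eaf1 1:982. The HHF2 change was 0.34 ± 0.18 in Epl1 1:380, 0.29 ± 0.18 in Epl1 1:485 and 0.08 ± 0.18 in the deletion (SE; limma, adjusted p 0.232, 0.324 and 0.85). In Epl1 1:380 it passed with the block (limma, adjusted p 0.032) and in the deposited ratios (0.33 ± 0.12, adjusted p 0.0472).

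HHF1, the other H4 gene, split by dye more than by strain. Its ratios were -0.04, -0.01 and -0.26 on replicate a of Epl1 1:380, Epl1 1:485 and the deletion, against -0.25 in tagged Epl1 and -0.30 in Eaf1 1:982. On replicate b they were 0.31, 0.25 and 0.28 in the same mutants, against 0.02 in tagged Epl1 and 0.12 in Eaf1 1:982. Replicate b was above replicate a in all 5 strains, by 0.26 to 0.54. The change was 0.25 ± 0.22 in Epl1 1:380, 0.23 ± 0.22 in Epl1 1:485 and 0.10 ± 0.22 in the deletion (SE; limma, adjusted p 0.498, 0.544 and 0.849). With the block the adjusted p was 0.0189 in Epl1 1:380, 0.0272 in Epl1 1:485 and 0.313 in the deletion (limma). In the deposited ratios it was 0.21, 0.134 and 0.996 in the same order.

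The H2A genes differed from each other in which arrays were high. HTA1 had ratios on replicates a and b of 0.14 and 0.26 in Epl1 1:380, 0.24 and 0.26 in Epl1 1:485 and -0.15 and 0.27 in the deletion, against -0.16 and -0.04 in tagged Epl1 and -0.11 and 0.20 in Eaf1 1:982. The truncations did not overlap tagged Epl1, and the deletion overlapped Eaf1 1:982. The HTA1 change was 0.30 ± 0.15 in Epl1 1:380 (SE; limma, adjusted p 0.218) and 0.35 ± 0.15 in Epl1 1:485 (adjusted p 0.163), and with the block HTA1 rose in both (limma, adjusted p 0.0193 and 0.00947). In the deletion it was 0.02 ± 0.15 (limma, adjusted p 0.974). These sizes varied with the source of the values: the deposited ratios gave 0.12 ± 0.08 in Epl1 1:380 (limma, adjusted p 0.233) and 0.45 ± 0.08 in Epl1 1:485 (adjusted p 0.002), while print-tip loess gave 0.03 and 0.01.

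HTA2, the other H2A gene, had ratios on replicates a and b of 0.27 and -0.07 in Epl1 1:380, 0.31 and 0.02 in Epl1 1:485 and -0.02 and 0.18 in the deletion, against -0.01 and -0.08 in tagged Epl1 and 0.13 and -0.07 in Eaf1 1:982. In the truncations replicate a stood above replicate b, and in the deletion the order was the other way round. The HTA2 change was 0.15 ± 0.15 in Epl1 1:380, 0.21 ± 0.15 in Epl1 1:485 and 0.05 ± 0.15 in the deletion (SE; limma, adjusted p 0.56, 0.397 and 0.901).

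The H2B genes showed the smallest range among the core pairs. HTB1 ran from 0.01 to 0.16 over the 6 mutant arrays, with a median of 0.09, against -0.08 to 0.19 over the 4 tagged arrays, with a median of 0.04. HTB2 ran from 0.01 to 0.19 in the mutants, with a median of 0.08, against -0.08 to 0.16 in the tagged strains, with a median of -0.02. Both genes overlapped between mutants and tagged strains. The HTB1 change was 0.07 ± 0.11 in Epl1 1:380, 0.09 ± 0.11 in Epl1 1:485 and -0.03 ± 0.11 in the deletion, and that of HTB2 was 0.06 ± 0.10, 0.16 ± 0.10 and 0.01 ± 0.10 in the same order (SE). Neither passed the limma test with or without the block in these 3 comparisons, and the HTB1 sign turned in the deposited ratios, to -0.01 in Epl1 1:380 and -0.05 in Epl1 1:485.

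HHO1 encodes the linker histone, which binds DNA between nucleosomes and is not a subunit of the nucleosome core. It ran from 0.06 to 0.18 over the mutant arrays, with a median of 0.15, against -0.04 to 0.25 over the tagged arrays, with a median of 0.15. On these intensities the mutant range lay inside that of the tagged strains. In the deposited ratios the mutants ran from 0.04 to 0.31, against -0.0047 to 0.14 in the tagged strains. There 5 of 6 mutant arrays were above each tagged array. The change was 0.04 ± 0.10 in Epl1 1:380, 0.02 ± 0.10 in Epl1 1:485 and -0.04 ± 0.10 in the deletion (SE; limma, adjusted p 0.834, 0.935 and 0.876). For the changes, the deposited ratios gave 0.17 ± 0.07, 0.21 ± 0.07 and -0.0012 ± 0.07 (SE; limma, adjusted p 0.095, 0.0533 and 0.994). With the block in those ratios the adjusted p was 0.0801, 0.0428 and 0.992 (limma), so HHO1 passed there in Epl1 1:485 only.

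Counts over the members were read against all features. In Epl1 1:380 against tagged Epl1, 0 of 9 members were called and 0 passed the limma test, where 3.5% of all features were called and 18.2% passed, and 0 members had an unadjusted p under 0.05. In Epl1 1:485 against tagged Epl1 the background was 2.54% called and 15.4% passing, with 0 members in either and 1 member, HTA1, at an unadjusted p under 0.05. In the deletion against Eaf1 1:982 it was 2.56% called and 11% passing, with 0 members in either and 0 at an unadjusted p under 0.05 (limma). In the mean of the 3 mutants against the mean of the 2 tagged strains it was 2.43% called and 33.2% passing, again with 0 members, and 1, HHT2, had an unadjusted p under 0.05 (change 0.30 ± 0.12, SE; adjusted p 0.0796). The arrays of the mutant lay above those of its tagged strain without overlap for 4 of 9 members in Epl1 1:380 (HTA1, HHT1, HHT2 and HHF2), 6 in Epl1 1:485 (these with HTA2 and HTB2) and 1 in the deletion (HHT2), where 28.5%, 26.3% and 27.4% of all features did so. In the deposited ratios 8, 7 and 2 members did so in the same order. The share of all features is not given here for those ratios, so these counts cannot be weighed. The comparisons of Epl1 1:380 and of Epl1 1:485 share the tagged Epl1 arrays, so their like signs are not independent.

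With the replicate letter as a block, 4 of 9 members passed in Epl1 1:380 (HTA1, HHT2, HHF1 and HHF2), 3 in Epl1 1:485 (HTA1, HHT2 and HHF1) and 1 in the deletion (HHT2), by limma. The background in these fits was 46.5%, 44.3% and 37.2%, so the share of members that passed was near that of all features in Epl1 1:380 and below it in the other 2 comparisons. In the deposited ratios 2 members passed in Epl1 1:380 (HHT2 and HHF2), 2 in Epl1 1:485 (HTA1 and HHT2) and 1 in the deletion (HHT2), where 40.8%, 37% and 33.6% of all features passed. For the mean of the 3 mutants 4 members passed with the block and 4 in the deposited ratios, where 59.1% and 55% of all features passed. HHT2 was among the members that passed in each of these 8 counts.

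The intervals set how large a change could have been missed. The 1.7-fold limit is 0.77 on the log2 scale. Without the block, the 95% interval lay within that limit in both directions for 8 of 9 members in Epl1 1:380, with HHT2 reaching 0.78, and for 9 of 9 in Epl1 1:485 and in the deletion. The median half-width over all features was 0.26, or 0.15 with the block.

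**Figure D2:**
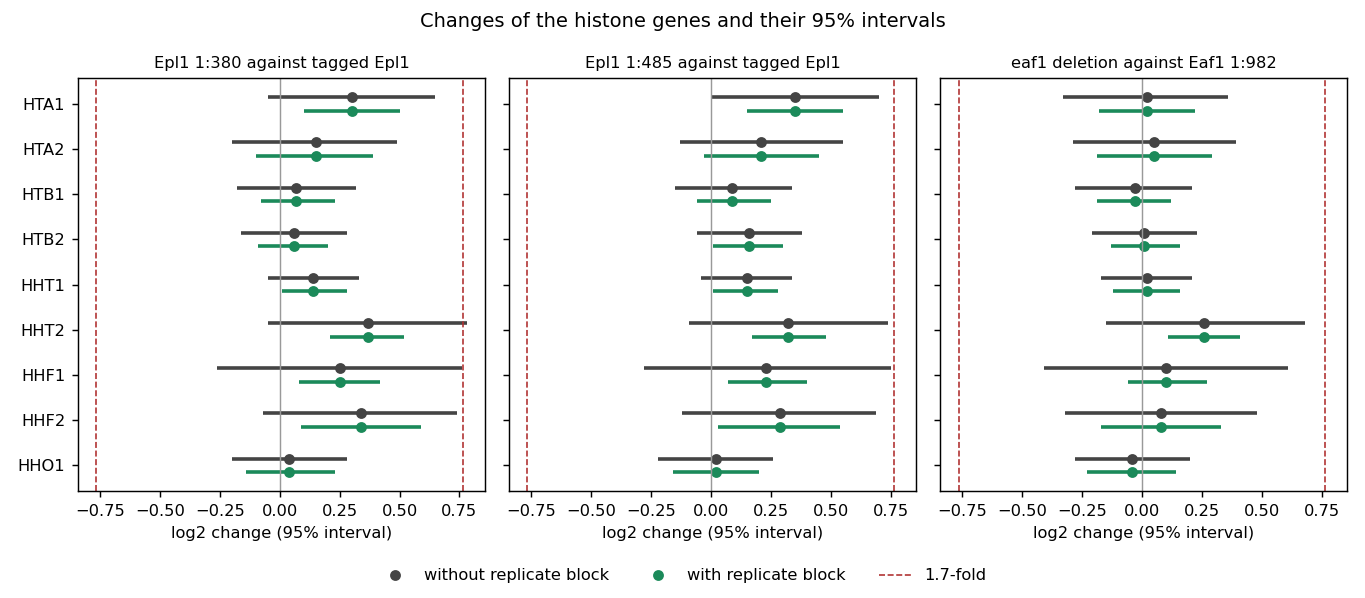
Log2 change of each histone gene (points) with its 95% interval (lines) in the 3 comparisons of a mutant with its tagged strain, without the replicate block (dark) and with it (green). Dashed lines mark a 1.7-fold change in either direction; without the block one interval, that of HHT2 in Epl1 1:380, passes 0.77, and with the block HHT2 stays above 0 in each panel.

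Between the truncations, Epl1 1:380 against Epl1 1:485, the members ranged from -0.10 to 0.05, and between the tagged strains, Eaf1 1:982 against tagged Epl1, from 0.01 to 0.15. In each, 0 of 9 members passed the limma test and 0 had an unadjusted p under 0.05, and the background was 0% called and 0% passing. For the truncation effect minus the deletion effect the members ranged from 0.07 to 0.31, where HTA1 was highest, with 0 of 9 passing, 0 at an unadjusted p under 0.05 and a background of 0.345% called and 0.423% passing (limma). Against the pool, 0 of 9 members passed in any strain without the block, where 4.39%, 3.58% and 3.64% of features were called in Epl1 1:380, Epl1 1:485 and the deletion, and 0.204% in each of the 2 tagged strains. The features passing were 39.5%, 36.2% and 32.2% in those mutants, 1.16% in tagged Epl1 and 1.68% in Eaf1 1:982. The members at an unadjusted p under 0.05 numbered 1, 1 and 0 in those mutants and 0 in each tagged strain (limma). With the block 5, 4 and 1 members passed in Epl1 1:380, Epl1 1:485 and the deletion, where 64.1%, 61.1% and 58.9% of all features did, and 0 in each tagged strain. In the deposited ratios 3, 3 and 1 passed in those mutants, where 60.4%, 57.9% and 55.2% of all features did.

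How the arrays were scaled moved the members, most of which lie at the bright end. With loess, the median change of the 319 brightest features in Epl1 1:380 against tagged Epl1 was -0.12, while 6 histone genes in that class ranged from 0.06 to 0.37. With print-tip loess the median of that class was -0.02, and these 6 genes ranged from 0.02 in HTB2 to 0.43 in HHT2. With median centring, which does not correct for brightness, the median of that class was -0.33, HHT2 was 0.14, and HTA2, HTB1 and HTB2 were -0.07, -0.15 and -0.16. In the deposited ratios the class median was 0.08, and HHT2 was 0.48. In Epl1 1:485 the class median was -0.11 with loess, -0.03 with print-tip loess, -0.27 with median centring and 0.08 in the deposited ratios. The HHT2 estimate was above 0 in 38 of 38 alternative settings in each of the 3 comparisons of a mutant with its tagged strain, between 0.14 and 0.53 in Epl1 1:380, 0.12 and 0.52 in Epl1 1:485, and 0.09 and 0.43 in the deletion, and with median centring it did not pass the limma test in any of them (adjusted p 0.672, 0.702 and 0.707).

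**Figure D3:**
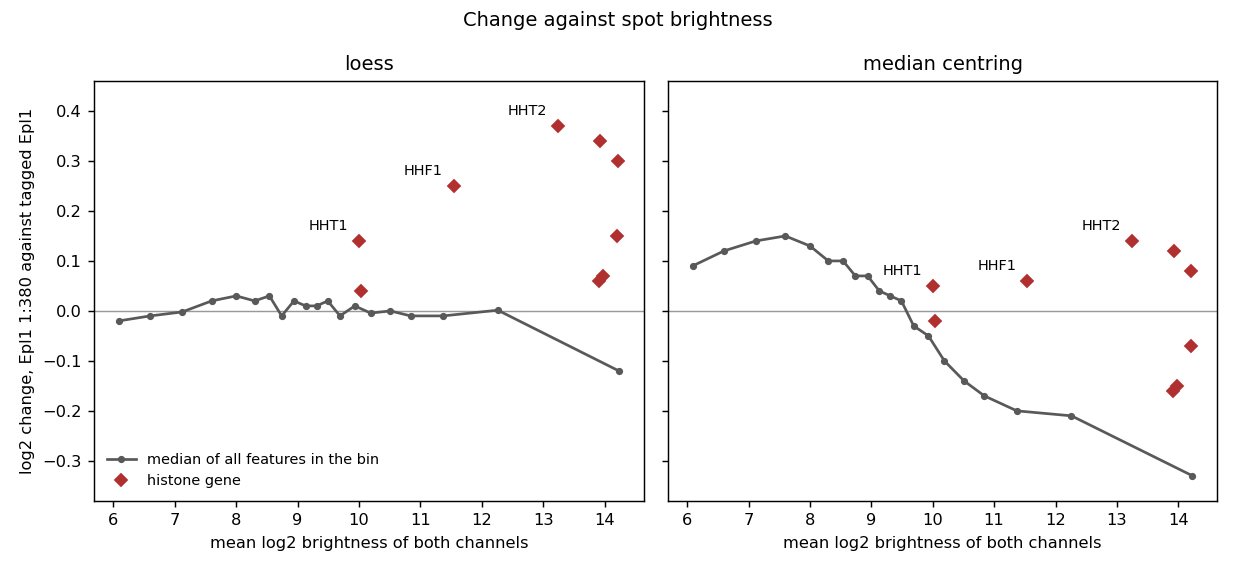
Log2 change in Epl1 1:380 against tagged Epl1 plotted on mean log2 brightness of both channels, for loess (left) and median centring (right). The grey line joins the medians of 20 brightness classes of all features, and diamonds are the 9 histone genes. With median centring the grey line drops to -0.33 in the brightest class, and HHT2 lies above it at 0.14.

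Centring on control RNA added in equal amounts moved the median of all features by 0.29 in Epl1 1:380, 0.20 in Epl1 1:485 and 0.27 in the deletion, each against its tagged strain. The median of the core genes was then 0.31, 0.23 and 0.21, so relative to all features the core genes were 0.31 against 0.29, 0.23 against 0.20, and 0.21 against 0.27. HHT2 was 0.40, 0.30 and 0.41 in this scaling, and no member passed the limma test in these 3 comparisons (HHT2 adjusted p 0.484, 0.769 and 0.63).

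**Figure D4:**
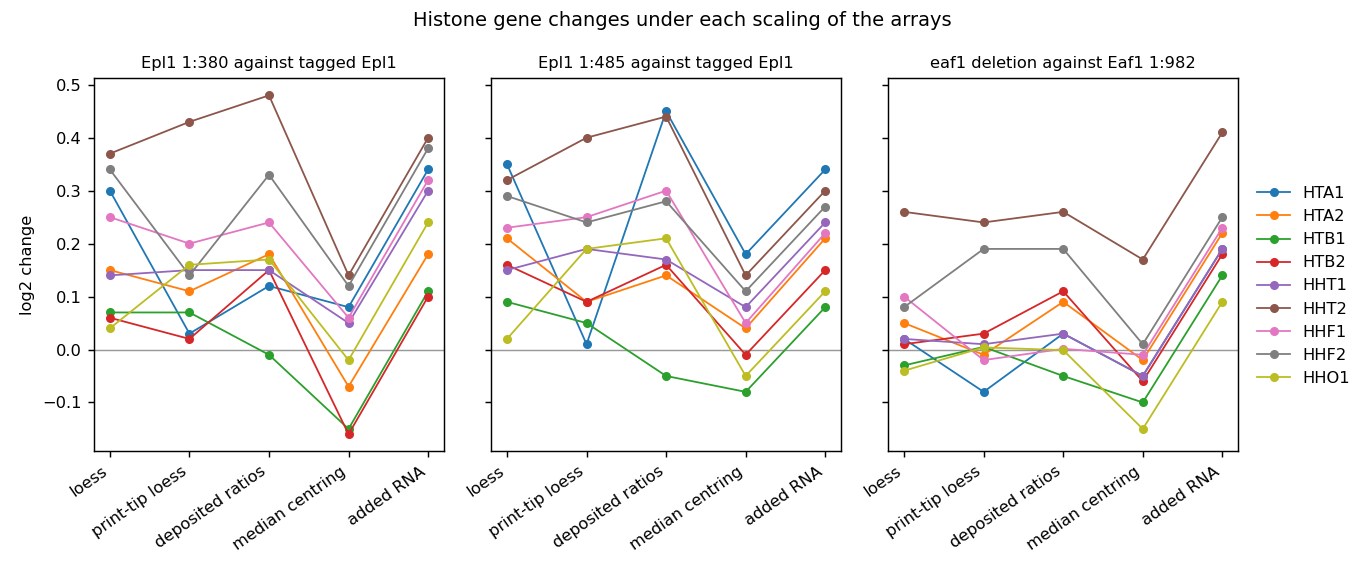
Log2 change of each histone gene under 5 ways of scaling the arrays, in the 3 comparisons of a mutant with its tagged strain. HHT2 is above 0 in each panel and each scaling, between 0.14 and 0.48, and HTA1 in Epl1 1:485 ranges from 0.01 with print-tip loess to 0.45 in the deposited ratios.

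RNA of Epl1 1:380 replicate b carries the isolation label that the pool has, and the other strain samples carry a different one. Without that array the HHT2 change against tagged Epl1 was 0.53 (limma, adjusted p 0.161), or 0.39 with the block (adjusted p 0.0111). HTA1 also passed with the block (0.35, limma, adjusted p 0.0469), while HHF1 and HHF2 no longer did (adjusted p 0.0754 and 0.0687).

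The histone genes sit among genes of related function whose values were taken from lists. Of the histone variants, CSE4, the H3 variant of centromeric nucleosomes, rose by 0.34 ± 0.09 in Epl1 1:380 (SE; limma, adjusted p 0.029) and by 0.33 ± 0.09 in Epl1 1:485 (adjusted p 0.0369). Its change in the deletion was 0.11 ± 0.09 (adjusted p 0.5). HTZ1, the H2A variant deposited at promoters by the SWR1 complex, had changes of 0.18 ± 0.10, 0.06 ± 0.10 and -0.08 ± 0.10 in the same order, none of which passed without the block (limma, adjusted p 0.247, 0.762 and 0.695). In Epl1 1:380 HTZ1 passed with the block (limma, adjusted p 0.038) and in the deposited ratios (adjusted p 0.0475).

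Of 12 regulators of histone gene transcription, 0 were called, and 0, 0 and 1 passed the limma test in Epl1 1:380, Epl1 1:485 and the deletion, with list medians of 0.02, 0.06 and 0.03. In the same comparisons 18.2%, 15.4% and 11% of all features passed. With the block 2, 1 and 2 regulators passed as higher and 1 in each as lower, where 46.5%, 44.3% and 37.2% of all features passed. The HIR complex represses most, but not all, core histone gene pairs outside S phase. Its subunit gene HIR2 rose by 0.34 ± 0.07 in the deletion (SE; limma, adjusted p 0.0184), and was -0.02 in each truncation. HIR1 changed by -0.04, -0.05 and 0.01, HIR3 by 0.22, 0.17 and 0.08, and HPC2 by 0.22, 0.31 and 0.11 in Epl1 1:380, Epl1 1:485 and the deletion, and none of these passed without the block. With it HPC2 passed in both truncations (limma, adjusted p 0.0196 and 0.00383), as it did in the deposited ratios (0.00879 and 0.0176), and HIR3 passed in Epl1 1:380 (0.0331, and 0.0375 in the deposited ratios). SPT10 and SPT21, which activate histone genes, had 0.13, 0.15 and 0.28, and -0.05, -0.13 and 0.12, and did not pass without the block. SPT10 in the deletion had an adjusted p of 0.0728, or 0.0105 with the block and 0.0787 in the deposited ratios (limma).

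Among 18 measured histone chaperones, 0 passed as higher and 1 as lower in each of the 3 comparisons, with medians of 0.02, 0.03 and -0.01, and with the block 1 passed as higher and 2 as lower in each. The gene that passed without the block was FPR4, a nuclear proline isomerase that binds histones, and it fell by 0.75 ± 0.10 in Epl1 1:380, 0.72 ± 0.10 in Epl1 1:485 and 0.40 ± 0.10 in the deletion (SE; limma, adjusted p 0.00208, 0.00307 and 0.0348). Of 10 genes of histone mRNA and protein turnover, 0 passed as higher in any of the 3, and 1, 0 and 1 passed as lower (limma). With the block 2, 2 and 3 passed as higher and 3, 2 and 2 as lower. The gene that passed without the block was RAD53, a checkpoint kinase that promotes degradation of excess histones, which fell by 0.40 ± 0.10 in Epl1 1:380 and 0.59 ± 0.10 in the deletion (SE; adjusted p 0.0341 and 0.0105). Beside these counts, 18.2%, 15.4% and 11% of all features passed without the block, and 46.5%, 44.3% and 37.2% with it. FPR4, RAD53 and the further genes named in the next sentences for passing the test without a call were chosen after their values were seen.

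Cell cycle genes are given beside the histones because core histone RNA follows S phase. Of 21 genes of G1 and S phase, 2 passed as higher and 4 as lower in Epl1 1:380, 2 and 3 in Epl1 1:485, and 1 and 5 in the deletion, with medians of -0.12, -0.11 and -0.13 (limma). With the block 4 passed as higher and 8 as lower in Epl1 1:380, 3 and 10 in Epl1 1:485, and 4 and 8 in the deletion. Of all features 18.2%, 15.4% and 11% passed in these comparisons without the block, and 46.5%, 44.3% and 37.2% with it. Without the block, those that fell in all 3 comparisons were SMC3, a subunit of cohesin, at -0.50, -0.48 and -0.62, MSH6, a mismatch repair gene, at -0.51, -0.47 and -0.41, and PRI2, a primase subunit, at -0.32, -0.35 and -0.57. RNR1, the large subunit of ribonucleotide reductase, rose by 0.50 in Epl1 1:380 and 0.41 in Epl1 1:485. CLB6 fell in Epl1 1:380, and CDC21 and POL1 fell in the deletion.

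The called members of the cell cycle lists were PCL1 and CLN3. PCL1, a G1 cyclin of the Pho85 kinase, rose by 0.93 ± 0.10 in Epl1 1:380 and 0.88 ± 0.10 in Epl1 1:485 (SE; limma, adjusted p 0.000806 and 0.00132), and by 0.50 ± 0.10 in the deletion (adjusted p 0.0141). CLN3, a G1 cyclin that acts at the start of the cycle, rose by 0.88 ± 0.16 in the deletion (SE; limma, adjusted p 0.0116). Its change was 0.54 ± 0.16 in Epl1 1:380 and 0.39 ± 0.16 in Epl1 1:485 (limma, adjusted p 0.0544 and 0.147, or 0.00131 and 0.00838 with the block). Of 15 measured G2/M genes, 0 passed as higher and 2 as lower in Epl1 1:380, and 1 and 2 did in each of Epl1 1:485 and the deletion, with medians of -0.21, -0.15 and -0.04 (limma). With the block these counts were 2 and 8 in Epl1 1:380, 2 and 7 in Epl1 1:485, and 2 and 5 in the deletion. HOF1 and ALK1 fell in all 3, by 0.53 to 0.60 and 0.66 to 0.71, and CLB2, a mitotic cyclin, rose by 0.54 in Epl1 1:485 and in the deletion. Of 17 M/G1 genes, 2 passed as higher and 1 as lower in Epl1 1:380, 0 and 1 in Epl1 1:485, and 2 and 0 in the deletion (limma), or 7 and 3, 6 and 4, and 5 and 0 with the block. The M/G1 medians were 0.14, 0.09 and 0.05, or -0.00028, -0.07 and -0.04 with median centring. Those higher without the block were CTS1 and PIR1 in Epl1 1:380 and PIR1 and CLN3 in the deletion, and MCM3 was lower in both truncations. In these 3 comparisons 18.2%, 15.4% and 11% of all features passed without the block, and 46.5%, 44.3% and 37.2% with it. The part of cell cycle position in the histone values was not tested.

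The mean of the 8 core genes on each array served to find genes with a like pattern. It was 0.15 and 0.16 on replicates a and b of Epl1 1:380, 0.20 and 0.14 in Epl1 1:485 and -0.0045 and 0.16 in the deletion, against -0.09 and -0.03 in tagged Epl1 and -0.06 and 0.09 in Eaf1 1:982. The 4 truncation arrays were above 0, and single core ratios were above 0 in 41 of 48 readings in the mutants, against 13 of 32 in the tagged strains. These readings are of 8 genes on shared arrays, so they are not independent observations. Of all features, 49.3% to 50.4% had a strain mean above the pool. With median centring the counts were 27 of 48 in the mutants, against 17 of 32 in the tagged strains. With print-tip loess they were 34 of 48 in the mutants, against 13 of 32, and in the deposited ratios 39 of 48 in the mutants, against 12 of 32. Over the 10 arrays, which share the pool, the named genes with the highest correlation were ARL1 (r 0.938), YRB30 (0.928), CDC23 (0.923), PDX1 (0.921) and VPS29 (0.917), and those with the lowest were BAS1 (-0.943), MSB1 (-0.934), YJL028W (-0.933), RPH1 (-0.932) and AIR1 (-0.929). These were picked as the extremes of 5315 named genes and are a description.

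Members of a pair did not always move together. Over the 10 arrays the divergent partners correlated at 0.70 for HTA1 with HTB1, -0.12 for HTA2 with HTB2, -0.13 for HHT1 with HHF1 and 0.08 for HHT2 with HHF2. The copies of one protein correlated at 0.28 for HTA1 with HTA2, 0.84 for HTB1 with HTB2, 0.83 for HHT1 with HHT2 and 0.89 for HHF1 with HHF2. Replicate b was above replicate a in all 5 strains for HTA1, HTB1, HTB2 and HHF1, and replicate a was above replicate b in all 5 for HHT1 and HHT2, so dye orientation moves with these correlations and its part was not tested. In the deposited ratios, which the authors corrected for gene-specific dye bias, the divergent partners correlated at -0.37, 0.67, 0.56 and 0.65 in the same order, and the copies at 0.49, 0.15, 0.42 and 0.88.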

How the data were processed

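Per the file headers, the deposited raw files hold intensity values per spot in each channel (Cy5 and Cy3). The log2 ratios in the deposited matrix run as Cy5 over Cy3. Per the protocol text among the deposited files, the authors applied print-tip loess with a span of 0.4 to uncorrected signals and then removed dye bias gene by gene. Backgrounds were corrected here with normexp (offset 50), arrays were normalised by loess (span 0.3) on 12776 gene spots, each ratio was expressed as strain over pool, and spots were averaged per gene. Over the 10 arrays the median signal of gene spots was 674 to 1090 in Cy5 and 334 to 585 in Cy3, and 10 arrays limit the precision.

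One limma model (version 3.58.1, R 4.3.3; lmFit and eBayes) with a coefficient per strain covered all features, with Benjamini-Hochberg adjustment in each comparison. The replicate letter marks dye orientation in the labels. Deviations of the same letter correlated at 0.637 to 0.871 between strains (10 pairs), so blocked values are given too where they change whether a named gene or a count of members passed. The members, lists, tests and the rule for named genes (the members, EAF1 and EPL1, histone variants, HIR subunits, SPT10, SPT21, called list genes and the 5 genes most and least like the core mean) were chosen with earlier results of these data known. NHP6A was listed but matched no name on the array, and 1 listed item is not reported here. Steps were tested on simulated data. A gene table of R64 gave codons and gene order. Sequences are not given here. Figures were drawn with matplotlib 3.10.9.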

Additional observations from a re-analysis of the deposited data

How the results depend on the processing

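No setting gave a called histone gene, so called counts stayed at 0 of 9 in the alternatives run. Of 1368 single-gene values in the 38 alternative settings, 108 turned sign, and 0 of those passed the limma test. These values cover the 3 mutants and their mean, each against its tagged reference, and leave out the pool. Against the pool, HTA2, HHT1 and HHT2 in Eaf1 1:982 turned to -0.53, -0.47 and -0.54 with added RNA. There they passed (limma, adjusted p 0.0355, 0.0332 and 0.0282), as did 64.3% of all features. With the replicate block, 4, 3, 1 and 4 members passed the limma test in Epl1 1:380, Epl1 1:485, the deletion and the mean of the 3 mutants, each against its tagged reference, where 46.5%, 44.3%, 37.2% and 59.1% of all features passed, and 10 of 45 values did against the pool. The block with print-tip loess gave 2, 4, 1, 3 and 7 (49.3%, 47.4%, 41.4% and 62.6% of all features in the first 4), the block without background correction 4, 4, 1, 4 and 10 (44.1%, 42.4%, 35.6% and 57.4%), and the block with the deposited ratios 4, 6, 1, 6 and 14 (49.6%, 46.6%, 42.4% and 62.2%). The block with median centring gave 1 for the mean and 2 for the pool. The share of all features is not given here for that setting, so these counts cannot be weighed. The block with added RNA gave 2 for the mean and 31 for the pool, where 49.1% of all features passed for the mean and 49.6% to 97.5% against the pool. Without the block, the deposited ratios gave 2, 2, 1, 4 and 7 (40.8%, 37%, 33.6% and 55% of all features), print-tip loess 1, 1, 0, 1 and 5 (20.4%, 17.7%, 13.6% and 35.4%), and the pixel median 1, 0, 0, 2 and 4 (20%, 17%, 12% and 34.9%). For the pool, added RNA gave 6, which were HTA2, HHT1 and HHT2 in tagged Epl1 and in Eaf1 1:982, all below the pool. In those strains 51.1% and 64.3% of all features passed with added RNA, and the median of all features was -0.55 and -0.58. A fit of the arrays compared alone gave 2 for the pool. These were 1 in Epl1 1:380 and 1 in the deletion, where 35.6% and 36.7% of all features passed. Leaving out each array in turn, with and without the block, gave 0 to 4 in Epl1 1:380, 0 to 5 in Epl1 1:485, 0 to 1 in the deletion, 0 to 5 for the mean, 0 to 1 for the truncation effect minus the deletion effect and 0 to 16 for the pool. Of all features, 31.1% to 50.7% passed in Epl1 1:380 in such fits with the block, 26.8% to 49.1% in Epl1 1:485 and 22.5% to 36.6% in the deletion. Without the block these counts were 0, except for the mean of the mutants, with 1 without Epl1 1:485 replicate b and 2 without the deletion's replicate a. HHT2 kept its pass with the block without any one array in both truncations, and in 8 of 10 such fits in the deletion (highest adjusted p 0.143). An arm left with 1 array is assumed to vary like the others.

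Signs turned as follows, with or without the block. With median centring, in Epl1 1:380, HTA2 was -0.07, HTB1 -0.15, HTB2 -0.16 and HHO1 -0.02. In Epl1 1:485, HTB1 was -0.08, HTB2 -0.01 and HHO1 -0.05. In the deletion, HTA1 was -0.05, HTA2 -0.02, HTB2 -0.06, HHT1 -0.05 and HHF1 -0.01. For the mean, HTA2 was -0.03, HTB1 -0.12 and HTB2 -0.09. With print-tip loess, in the deletion, HTA1 was -0.08, HTA2 -0.01, HTB1 0.0049, HHF1 -0.02 and HHO1 0.004, and for the mean HTA1 was -0.03 and HHO1 0.11. In the deposited ratios HTB1 was -0.01 in Epl1 1:380, -0.05 in Epl1 1:485 and -0.05 for the mean, where HHO1 was 0.12. With added RNA, HTB1 was 0.14 and HHO1 0.09 in the deletion, and HHO1 0.15 for the mean. With plain background subtraction HTA1 was -0.0014 and HTB2 -0.0039 in the deletion, and HHO1 0.0014 for the mean. The causes were not tested.

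Leaving out arrays, with and without the block, gave these ranges where a sign turned. In Epl1 1:380 HTA2 was -0.02 to 0.32, HTB1 -0.02 to 0.16 and HHO1 -0.10 to 0.19. In Epl1 1:485 HHO1 was -0.12 to 0.16. In the deletion HTA1 was -0.19 to 0.23, HTA2 -0.16 to 0.26, HTB1 -0.17 to 0.10, HTB2 -0.11 to 0.13, HHT1 -0.02 to 0.07, HHF1 -0.17 to 0.37, HHF2 -0.17 to 0.34 and HHO1 -0.14 to 0.06. For the mean HTB1 was -0.03 to 0.11 and HHO1 -0.07 to 0.07.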
